A study of Rattus norvegicus with 18 samples.

Results

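Transcripts of fat cells and of fatty acid synthesis were followed in rat heart allografts. The 10 genes were named by symbol (Adipoq, Lep, Retn, Cfd, Plin1, Lipe, Fabp4, Car3, Scd and Fasn), and were chosen on earlier results of these same grafts, in which they appeared to vary together. Of the 10, 9 have a probe set with that single symbol, out of 14217 genes with a named probe set on the array, and no probe set was named Retn here. For a gene with several probe sets, the one with the highest mean over all arrays was used. Because the choice rests on the grafts, differences among grafts are given for these 9 genes as values, with no test.

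White adipocytes store triglyceride in a lipid droplet coated by perilipin, release it through lipases between meals, and secrete hormones such as adiponectin, leptin and adipsin. Their lipid comes partly from the blood and partly from synthesis, in which fatty acid synthase builds the chain and stearoyl-CoA desaturase places a double bond in it. Fat lies on the surface of the heart and around its vessels, so a piece of graft can hold adipocytes beside muscle, endothelium and infiltrating leukocytes.

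Hearts from Wistar Furth rats were transplanted into the abdomen of ACI rats. Recipients were given cyclosporine, an inhibitor of T cell activation (10 mg/kg/day by mouth on days 0 to 2, a dose the protocols call sub-therapeutic), or the same cyclosporine with an allochimeric class I peptide (1 mg/kg into the portal vein at transplantation), or were left untreated. All animals were adult males, and every group carried an allograft, so no unoperated heart serves as a baseline. Allografts and T cells were taken on days 1, 3 and 7, with 1 array for each combination of tissue, treatment and day, 9 from T cells and 9 from grafts. All samples carry the strain label Wistar Furth, and neither the organ nor the animal behind the T cells is stated. Whether several arrays come from the same animal, or one array from pooled tissue, is not stated, so the p-values below reflect how these arrays scatter, for biological or technical reasons.

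The deposited values are linear signal intensities, here used as log2(intensity + 16). Array medians lay between 194.8 and 210.2 in T cells and between 210.2 and 231.2 in grafts. Between the tissues, 11 of 11 T cell genes with signal in both were higher in T cells and 3 of 3 such heart muscle genes lower (limma, adjusted p below 0.05; T cells were higher for 47.9% and lower for 35.5% of all probe sets). Another 11 heart muscle genes passed the filter on low signal in grafts alone, so they could only be called lower. Among the grafts, the cyclosporine graft of day 1 and the untreated graft of day 3 stood highest of their days for most of the adipocyte genes, and correlations are therefore given with and without them. In bulk tissue, fewer adipocytes and less RNA per adipocyte cannot be told apart.

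Promoters are shown for the 3 genes that moved most alike and have an entry in the RefSeq promoter table (rat build GRCr8), and for Lep, which stayed near the bottom of the signal range. Each sequence runs from 250 bases before to 50 bases after the annotated start. Capitals mark matches on either strand to CCAAT (read ATTGG on the other strand), to AGGTCA, a core element of nuclear receptor sites, to TTNNGCAA, a pattern of the C/EBP factors of adipocyte differentiation, or to the TATA box TATAAA. Adipoq (adiponectin) lies at chr11:91240120-91240419 and Plin1 (perilipin 1) at chr1:143086099-143086398, Scd (stearoyl-CoA desaturase) at chr1:253231682-253231981, all on the minus strand, and Lep (leptin) at chr4:58626288-58626587 on the plus strand.
Adipoq: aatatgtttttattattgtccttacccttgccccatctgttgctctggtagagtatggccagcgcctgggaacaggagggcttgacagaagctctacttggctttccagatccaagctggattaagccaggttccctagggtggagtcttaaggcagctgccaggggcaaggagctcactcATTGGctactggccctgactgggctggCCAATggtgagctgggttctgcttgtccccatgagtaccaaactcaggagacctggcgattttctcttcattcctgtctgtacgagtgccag
Plin1: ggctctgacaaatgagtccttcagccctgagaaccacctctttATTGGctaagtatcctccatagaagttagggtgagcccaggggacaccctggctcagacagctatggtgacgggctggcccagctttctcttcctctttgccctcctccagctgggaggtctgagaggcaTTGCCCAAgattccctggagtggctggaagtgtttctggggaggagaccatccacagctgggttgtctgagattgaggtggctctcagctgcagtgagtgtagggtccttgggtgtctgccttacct
Scd: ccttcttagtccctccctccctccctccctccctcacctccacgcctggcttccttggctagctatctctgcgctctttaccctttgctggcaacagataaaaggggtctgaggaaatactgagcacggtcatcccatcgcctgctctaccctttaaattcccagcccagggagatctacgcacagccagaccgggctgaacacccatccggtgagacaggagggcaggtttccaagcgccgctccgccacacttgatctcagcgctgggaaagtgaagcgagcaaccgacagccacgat
Lep: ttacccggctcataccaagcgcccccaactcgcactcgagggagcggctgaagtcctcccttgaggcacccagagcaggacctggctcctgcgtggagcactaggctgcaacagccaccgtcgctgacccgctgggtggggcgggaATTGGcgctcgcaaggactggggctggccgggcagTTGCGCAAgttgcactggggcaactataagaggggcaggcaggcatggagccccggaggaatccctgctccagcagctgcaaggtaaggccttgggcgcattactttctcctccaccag

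The Adipoq window holds CCAAT at positions -69 (minus strand) and -42 (plus strand) relative to the start. The Plin1 window holds CCAAT at -207 and TTNNGCAA at -77, both on the minus strand. In the Lep window CCAAT begins at -104, and the palindromic match TTGCGCAA at -69 counts on both strands. None of these motifs occurs in the Scd window, which means only that these letters are not in it. Of all 33469 promoters of this length, 37.5% hold CCAAT, 16.2% AGGTCA, 10.6% TTNNGCAA and 14.2% TATAAA. So these matches are common letters in rat promoters, and Lep carries them too although its signal stayed low. The E box CANNTG occurs in all 4 windows and in 72.1% of promoters, and TCACNCCAC, the sterol response element pattern of the lipogenic regulator SREBP, occurs in none of the 4 and in 1.12% of promoters.

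Adipoq, which encodes the adipocyte hormone adiponectin, differed strongly between grafts of the same day. Its intensity was 576 in the cyclosporine graft, 317 in the cyclosporine plus peptide graft and 177 in the untreated graft of day 1. On day 3 the same order of groups gave 387, 298 and 969. On day 7 it gave 398, 635 and 426. The highest graft was thus a different treatment on each day: cyclosporine on day 1, untreated on day 3 and cyclosporine plus peptide on day 7.

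Plin1, the coat protein of the adipocyte lipid droplet, had the same order. On day 1 it measured 233 with cyclosporine, 155 with cyclosporine plus peptide and 108 untreated. On day 3 it measured 184, 177 and 530 in these groups. By day 7 the values were 187, 238 and 199. The untreated graft of day 3 lay far above the other 8, which ranged from 108 to 238. A second Plin1 probe set read 22.8 to 76.1 across grafts and exceeded the 40th percentile of its array in 0 of them. Its r with the first was 0.60. The untreated graft of day 3 was its highest too, but its order differed on day 1 (34.0, 36.2 and 42.3 in these groups) and day 7 (38.9, 35.7 and 22.8).

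Scd, the desaturase that makes monounsaturated fatty acids, had the widest swings of the 9 genes. It read 964 in the cyclosporine graft, 242 in the cyclosporine plus peptide graft and 61.5 in the untreated graft on day 1. On day 3 these were 117, 53.2 and 391. On day 7 they were 148, 362 and 154. Of the 9 grafts, 6 were above the 40th percentile of their array. The untreated graft of day 1 and both treated grafts of day 3 were below it, so no fold is given against them. On day 7, with all 3 above it, cyclosporine over untreated was 0.96 and cyclosporine plus peptide over untreated 2.22 (on the log2(intensity + 16) scale). The sign of the difference between treated and untreated grafts therefore changed between days.

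Car3, carbonic anhydrase 3, is abundant in adipocytes and in slow skeletal muscle. Its day 1 intensities were 2442 with cyclosporine, 1603 with cyclosporine plus peptide and 771 untreated. On day 3 they were 5250.5, 3856 and 7686. On day 7 they were 2787, 4097.5 and 2517. Car3 thus had the order of Adipoq on days 1 and 3. On day 7 cyclosporine plus peptide was highest for both, but the lowest graft was untreated for Car3 and cyclosporine for Adipoq. All 3 Car3 values of day 3 were above all 3 of day 1 (day 3 minus day 1, 1.88 ± 0.40 on the log2 scale, fitted difference and SE). A second Car3 probe set gave the same profile (r = 1.00 over 9 grafts). Of the 5 tested skeletal muscle genes, 0 were called higher and 2 lower (Casq1 and Myh1) on day 3 than on day 1 (1 lower without the untreated graft of day 1), where 14.6% of all probe sets were higher and 12.9% lower. Myh1 also read 11.65, 11.75 and 11.78 in T cell samples on days 1, 3 and 7 (mean log2), so its signal is not particular to muscle here. Other genes of that list, such as Myh2, Myh4 and Tnnt3, exceeded the 40th percentile in 0 of 9 grafts. The part of skeletal muscle in the Car3 values was not tested.

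**Figure D1:**
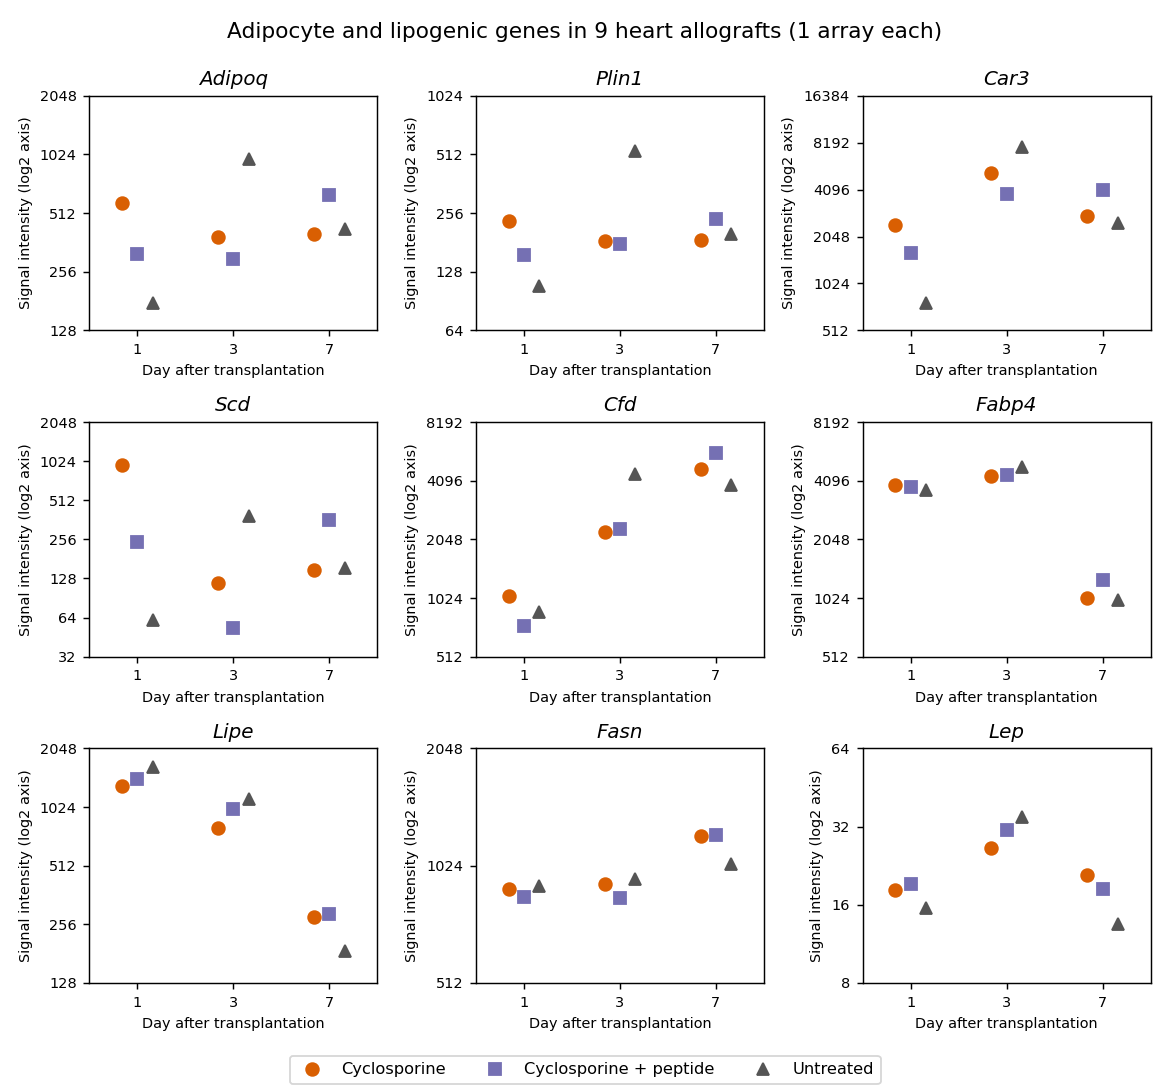
Signal intensity (log2 axis, arbitrary array units) of the 9 genes in 9 heart allografts by day after transplantation, 1 point per array, with cyclosporine left, cyclosporine plus peptide in the middle and untreated right within each day. Adipoq, Plin1, Car3 and Scd spread widely within days 1 and 3, whereas Fabp4 and Lipe are much alike within a day and lowest on day 7.

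The remaining members followed the day more than the graft. Cfd encodes adipsin (complement factor D), a serine protease secreted by adipocytes and also by macrophages. On day 1 Cfd gave 1045.5 with cyclosporine, 732 with cyclosporine plus peptide and 870 untreated. On day 3 it gave 2229, 2309 and 4418. On day 7 it gave 4693.5, 5722 and 3878. All 3 grafts of day 7 were above all 3 of day 1, a difference of 2.41 ± 0.27 (log2, SE). Beside it, macrophage genes rose with time: 12 of 13 were called higher and 0 lower on day 7 than on day 1 (all probe sets, 30.9% higher and 33.8% lower). Their summed intensity was 36588 to 39493 on day 1, 58216 to 67995 on day 3 and 94305 to 99771 on day 7, with no marker at 0. Their part in the Cfd values was not tested.

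Fabp4, the fatty acid carrier of adipocytes, capillary endothelium and macrophages, was nearly equal within each day. On day 1 it read 3905 with cyclosporine, 3820 with cyclosporine plus peptide and 3686 untreated, and on day 3 4319, 4367 and 4826. On day 7 the 3 grafts read 1029, 1266 and 1002. Lipe, hormone-sensitive lipase, read 1309.9, 1432 and 1650.1 on day 1 in the same order of groups, 799, 1004 and 1126 on day 3, and 278, 288 and 187 on day 7. Both were lower in every graft of day 7 than in any earlier graft, by -1.78 ± 0.09 for Fabp4 and -2.49 ± 0.18 for Lipe (day 7 minus day 1, log2, SE). Endothelial genes moved the same way: 13 of 14 were called lower and 1 (Fabp5) higher on day 7 than on day 1 (all probe sets, 30.9% higher and 33.8% lower). The summed intensity of the 14 was 34959 to 37285 on day 1, 32570 to 35936 on day 3 and 20016 to 20620 on day 7, none of them at 0, and their part in the Fabp4 values was not tested. A second Lipe probe set stayed between 240 and 337 and did not show the decline (-0.17 ± 0.08), so the Lipe result rests on 1 probe set.

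Fasn, fatty acid synthase, varied least. It read 892 with cyclosporine, 850 with cyclosporine plus peptide and 908 untreated on day 1, 919, 845 and 945 on day 3, and 1220.1, 1230.0 and 1032 on day 7. The day 7 grafts were above all others (0.38 ± 0.08 against day 1), and a second Fasn probe set gave 1.02 ± 0.14. Lep, the hormone leptin, read 13.5 to 35.0 in grafts and 15.5 to 49.3 in T cells, below the 40th percentile of each array, so it is counted as a member but its order carries little information. The other 8 passed the filter on low signal in grafts.

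The spread within and between days separates the members. Grafts of the same day held 91.9% of the variance of Scd over the 9 grafts, 83.0% of that of Adipoq and 75.1% of that of Plin1. The share was 28.6% for Car3, 17.5% for Fasn, 8.91% for Cfd, 3.70% for Lipe and 1.15% for Fabp4. The last 3 genes thus differed mostly between days, and the first 3 mostly between grafts of the same day. With 3 grafts on each of 3 days, a gene unrelated to day would also hold most of its variance within days. Grafts of the same day differ in treatment too, with 1 array each, so graft and treatment cannot be told apart here.

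Within a day, the order of the 3 grafts was shared by many members. On day 1 the cyclosporine graft was highest for 6 of 9, the exceptions being Fasn, Lipe and Lep. Over all 11158 genes tested this graft was highest for 35.2%. On day 3 the untreated graft was highest for all 9, against 41.2% of all genes. On day 7 the cyclosporine plus peptide graft was highest for 8 of 9, Lep being the exception, against 30.4% of all genes. The median over members of cyclosporine minus untreated was 0.26 on day 1, -0.55 on day 3 and 0.15 on day 7 (log2), and that of cyclosporine plus peptide minus untreated was 0.15, -0.93 and 0.56. The medians over all genes lay between -0.02 and 0.00 in these 6 comparisons. Without Lep, the day 1 median of cyclosporine minus untreated was 0.64 and that of cyclosporine plus peptide minus untreated 0.26, and the day 7 median of cyclosporine minus untreated was 0.09. With a pseudocount of 64 or 1, the day 1 median of cyclosporine plus peptide minus untreated was 0.06 or 0.28, and with all probe sets of a gene averaged its day 7 median was 0.37. With 1 array for each graft these single-day differences have no replicate check.

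Averaged over days, the swings cancelled. Cyclosporine minus untreated was 0.08 ± 0.51 for Adipoq, -0.18 ± 0.41 for Plin1, 0.41 ± 0.40 for Car3 and 0.67 ± 0.93 for Scd (log2, SE, 3 same-day pairs). Cyclosporine plus peptide minus untreated was -0.10 ± 0.51, -0.26 ± 0.41, 0.25 ± 0.40 and 0.11 ± 0.93 for these genes. Each average was smaller than its SE or about equal to it, and the sign of the single-day differences was not the same on all days. Over all probe sets tested, limma called 0 of 19734 (0%) in each of the 3 treatment comparisons of grafts, with 2287, 3157 and 954 at an unadjusted p below 0.05 for cyclosporine minus untreated, cyclosporine plus peptide minus untreated and cyclosporine plus peptide minus cyclosporine. None of the genes of the 13 further lists was called there. A treatment difference that changes sign between days counts as scatter in this fit, so it could not be called.

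Whether the members vary together depends on what is removed first. Over the 9 grafts as deposited, the median Pearson r of the 36 pairs was 0.22, from -0.86 (Fabp4 and Fasn) to 0.94 (Adipoq and Plin1), against a median of 0.00 over all pairs of genes tested. It was 0.41 without the cyclosporine graft of day 1 and 0.11 without the untreated graft of day 3. After subtracting each day's mean, the median was 0.59, from -0.03 (Lipe and Scd) to 0.98 (Car3 and Scd), with 34 of 36 pairs above 0 and 7 above 0.8. Over all gene pairs the median was then 0.01, with 50.6% above 0 and 2.8% above 0.8. With treatment and day both removed the median was 0.75. With treatment and day removed it was 0.31 without the untreated graft of day 3, and 0.14 without that graft and the cyclosporine graft of day 1. With day means subtracted, these medians were 0.49 and 0.41. These values describe 9 grafts that share 3 days and 3 treatments, and the members were chosen with their covariation known.

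**Figure D2:**
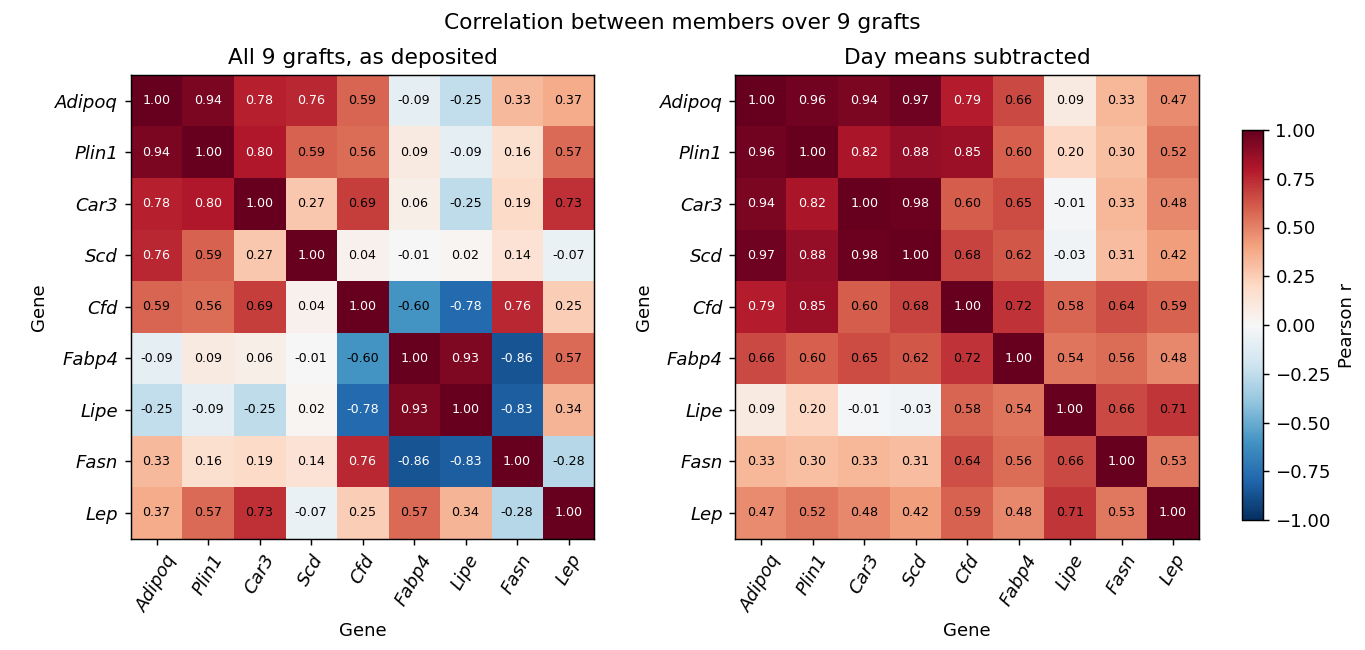
Pearson r between the 9 genes over 9 grafts, as deposited (left) and after subtracting the mean of the 3 grafts of each day (right). In the right panel Adipoq, Plin1, Car3 and Scd form a block with r of 0.82 to 0.98, and Lipe stands apart from it with r of -0.03 to 0.20.

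The tight core was Adipoq, Plin1, Car3 and Scd. With day means subtracted, r was 0.97 for Adipoq and Scd, 0.96 for Adipoq and Plin1 and 0.94 for Adipoq and Car3. Without the cyclosporine graft of day 1 and the untreated graft of day 3, these were 0.99, 0.96 and 0.97, so they did not fall when those 2 arrays were left out. The core was picked by its r in these same grafts and few arrays then remain, so this is a description only. The r of Cfd with Adipoq depended on the arrays: it was 0.79 over 9 grafts, 0.94 without the day 1 grafts, 0.54 without the untreated graft of day 3 and 0.16 without both outlying arrays. Fabp4 had r = 0.66 with Adipoq, although its deviations from the day mean never exceeded 0.21 (log2) in size. Lipe had r = 0.09 and Fasn r = 0.33 with Adipoq.

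Other white adipocyte genes were set beside the core. Of the 27 tested genes of this list, 6 had r above 0.8 with Adipoq after subtraction of day means, which holds for 259 of 11150 genes overall (2.32%). They were Sncg (synuclein gamma, r = 0.98), Cidec (a lipid droplet fusion protein, 0.96), Pck1 (phosphoenolpyruvate carboxykinase, which adipocytes use to make glycerol phosphate, 0.93), Rbp4 (retinol binding protein, 0.92), Thrsp (a lipogenic nuclear protein, 0.86) and Prkar2b (a protein kinase A subunit, 0.81). Cidec read 154 with cyclosporine, 93.9 with cyclosporine plus peptide and 53.6 untreated on day 1, 69.5, 67.2 and 285 on day 3, and 120, 165 and 126 on day 7. Pck1 read 266, 203 and 149, then 271, 197 and 827, then 427, 586 and 417 in the same order. Thrsp read 377, 241 and 143, then 232, 257 and 480, then 401, 810.5 and 283. An order of grafts like that of Adipoq follows from choosing these genes by their r. Cidec exceeded the 40th percentile in only 3 of the 9 grafts and Rbp4 in 5. Without the cyclosporine graft of day 1 and the untreated graft of day 3, r was 0.68 for Rbp4 and 0.78 for Thrsp, both below 0.8. It was 0.95 for each of Sncg, Cidec and Pck1, and was not computed for Prkar2b. The median r of the whole list was 0.16. Several of its genes, such as Lpl, Cd36 and Slc2a4, are also known from heart muscle or endothelium.

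**Figure D3:**
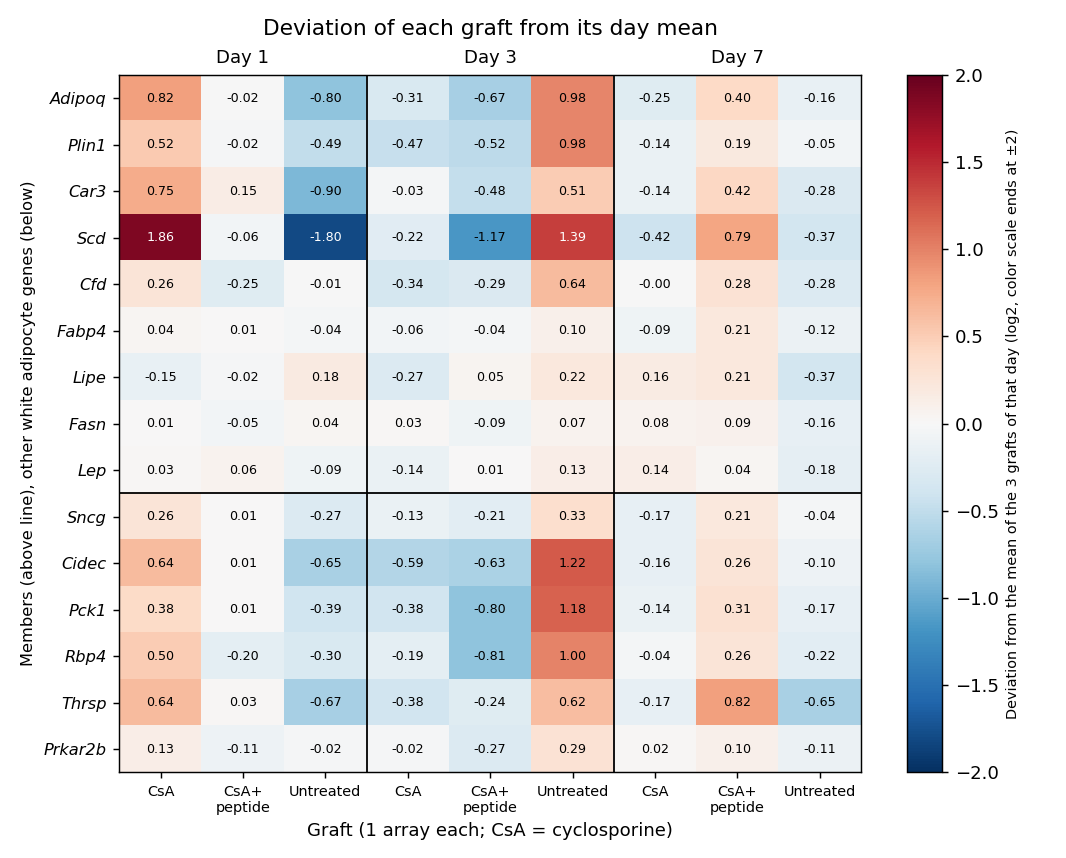
Deviation of each graft from the mean of the 3 grafts of its day (log2; red above, blue below) for the 9 genes and for the 6 other white adipocyte genes with r above 0.8 to Adipoq, which were selected by that r. Scd spans 1.86 to -1.80 on day 1, and the untreated graft of day 3 is above its day mean for every gene shown.

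Except for the T cell genes, the other lists held few or no genes with r above 0.8 to Adipoq. The count was 0 of 17 for fatty acid synthesis, 0 of 15 for cholesterol synthesis and uptake, 0 of 12 for lipid droplet and lipolysis, 0 of 6 for brown adipocyte and 0 of 12 for progenitor and stromal genes. It was also 0 for the 14 endothelial, 13 macrophage, 14 heart muscle, 5 skeletal muscle and 5 peripheral nerve genes, and 1 of 8 (Krt19, 0.82) for mesothelial genes. Of 11 T cell genes, 5 passed: Cd3e (0.95), Cd3g (0.92), Cd8a (0.84), Lck (0.82) and Cd5 (0.81). The median over the T cell list was 0.79, above the 0.16 of the white adipocyte list. Their summed intensity was 2672 with cyclosporine, 1953 with cyclosporine plus peptide and 1660 untreated on day 1, and 2234, 2340 and 3376 on day 3. On day 7 it was 26918, 26495 and 21708. Cd3g and Lck exceeded the 40th percentile of the array in 9 of 9 grafts, Cd3e and Cd8a in 7 and Cd5 in 5. No T cell gene was at 0 in a graft, and the part of T cell content in the adipocyte pattern was not tested. The ratio of 3' to 5' actin probe sets, a sign of RNA integrity, was 2.27, 2.44 and 1.84 on day 1, 1.87, 1.82 and 1.64 on day 3 and 1.41, 1.43 and 1.41 on day 7 in the same order of groups. Its part was likewise not tested.

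By likeness to the mean of all 9 standardised members over the 9 grafts, the 10 nearest other genes were Helz (r = 0.89), Fam114a1 (0.89), Plvap (0.89), Sppl2b (0.89), Prkar2b (0.88), Msrb2 (0.86), Csrnp2 (0.86), N4bp2 (0.86), Angpt4 (0.86) and Rbp4 (0.86). Only Prkar2b and Rbp4 were on the white adipocyte list.

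The wider lipid lists were tested between days with limma, with treatment in the model. On day 3 against day 1, 4 of 27 white adipocyte genes rose (Pde3b, Cebpa, Nnat and Slc2a4) and 5 fell (Gpam, Pnpla2, Angptl4, Aqp7 and Gpd1). These counts are near the shares of all probe sets, of which 14.6% rose and 12.9% fell. The number of list genes that rose was 2 without the cyclosporine plus peptide graft of day 1. The number that fell was 3 without the cyclosporine graft of day 1, the cyclosporine graft of day 3 or the untreated graft of day 3, and 2 without the cyclosporine plus peptide or the untreated graft of day 1. On day 7 against day 1, 3 rose and 15 fell, while 30.9% of all probe sets rose and 33.8% fell. The list median was -0.60 against 0.00 over all genes. On day 7 against day 3, 3 rose (6 without the untreated graft of day 3) and 16 fell, while 26.9% of all probe sets rose and 29.4% fell. Among those lower on day 7 than on day 1 were Aqp7, a glycerol channel (-2.37 ± 0.08, adjusted p = 8.8e-07), Gpam, which starts triglyceride assembly (-1.80 ± 0.11, adjusted p = 8.3e-06), and Angptl4, an inhibitor of lipoprotein lipase (-1.79 ± 0.09, adjusted p = 3.5e-06). The 3 that rose were Pde3b, a phosphodiesterase through which insulin restrains lipolysis (1.94 ± 0.18), Cebpa, a transcription factor of adipocytes and myeloid cells (1.39 ± 0.14), and Bscl2, the droplet protein seipin (0.56 ± 0.06). Their number was 5 without the cyclosporine graft of day 1 and likewise without the untreated graft of day 3. Adipoq, Plin1 and Car3 were not lower on day 7 than on day 1 (0.55 ± 0.51, 0.36 ± 0.41 and 1.07 ± 0.40, with no test). For Adipoq and Plin1 the difference was about the size of its SE. Cfd and Fasn were higher too (2.41 ± 0.27 and 0.38 ± 0.08), whereas Scd, Fabp4 and Lipe were lower (-0.30 ± 0.93, -1.78 ± 0.09 and -2.49 ± 0.18). Heart muscle genes fell in 9 of 14 cases and rose in 2 (Nppa and Nppb) over the same interval, and their part in the list counts was not tested.

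Genes of fatty acid synthesis split. On day 7 against day 1, 8 of 17 rose and 7 fell, with a median of -0.04, where 30.9% of all probe sets rose and 33.8% fell. Scd2, a second desaturase, rose by 1.21 ± 0.06 (adjusted p = 3.8e-06), whereas the Scd difference was -0.30 ± 0.93, with no test. Tkt, an enzyme of the pentose phosphate pathway that yields NADPH for synthesis, rose by 1.00 ± 0.08 (adjusted p = 2.5e-05). Lpin1, a phosphatidate phosphatase (-1.52 ± 0.08, adjusted p = 3.4e-06), and Acacb, the mitochondrial acetyl-CoA carboxylase (-1.03 ± 0.10, adjusted p = 6.9e-05), fell. Srebf1, the transcription factor of lipogenesis, rose by 0.44 ± 0.07 (adjusted p = 0.0010).

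Of the cholesterol genes, 11 of 15 rose on day 7 against day 1 and 2 fell (Fdft1 and Insig1), with a median of 0.45, where 30.9% of all probe sets rose and 33.8% fell. The summed intensity of the T cell genes was 21708 to 26918 on day 7 and 1660 to 2672 on day 1, that of the macrophage genes rose as given above, and 11 of the 15 cholesterol genes were higher in T cells than in grafts. Their part in the cholesterol counts was not tested. By day 7, Mvk and Sqle, enzymes of sterol synthesis, had risen by 1.16 ± 0.09 and 0.95 ± 0.10, and Srebf2, the transcription factor of the pathway, by 0.93 ± 0.10 relative to day 1. Among lipid droplet genes, 8 of 12 fell on day 7 against day 1, led by Fitm2, which helps droplets form (-2.15 ± 0.06), and including Plin5, the perilipin of oxidative tissues, and 3 rose (Lpin2, Lpin3 and Plin3). Of the brown adipocyte list, 5 of 6 tested genes fell (Cidea, Cox8b, Cpt1b, Ppargc1a and Prdm16) and Slc27a2 rose. Cox8b, Cpt1b and Ppargc1a are also known from heart muscle, whose genes fell in 9 of 14 cases over this interval, and the part of heart muscle in the droplet and brown adipocyte counts was not tested. Ucp1, the defining gene of brown fat, read 20.8 to 116 in grafts and was not tested.

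T cells were compared with grafts in a fit over all 18 arrays, a contrast that the choice of members did not use. Adipoq read 46.1, 70.1 and 86.9 (lowest, median and highest) in T cells and 177, 398 and 969 in grafts. Car3 read 44.9, 58.8 and 65.1 in T cells and 771, 2787 and 7686 in grafts. Lipe read 76.7, 102 and 140 in T cells and 187, 1004 and 1650.1 in grafts, and Plin1 70.3, 88.3 and 125 in T cells and 108, 187 and 530 in grafts. Adipoq, Car3 and Lipe thus did not overlap between tissues, and Plin1 did. Of all 11797 genes tested, 26.3% were lower in T cells with no overlap and 28.7% higher with none. The differences were -2.36 ± 0.24 for Adipoq (adjusted p = 1.5e-07), -5.31 ± 0.28 for Car3 (adjusted p = 4.4e-11), -2.62 ± 0.28 for Lipe (adjusted p = 3.0e-07) and -1.03 ± 0.20 for Plin1 (adjusted p = 0.00016).

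Those 4 genes passed the low-signal filter through the grafts alone, with 0 T cell arrays above the 40th percentile for Adipoq, Car3 and Plin1 and 1 for Lipe. They could therefore only be called lower, and their number is not read as support. The second Lipe probe set was higher in T cells (0.20 ± 0.05, adjusted p = 0.0033), against the first, and with both averaged the Lipe difference was -1.21. Averaged over both probe sets, Plin1 differed by -0.67 and Fasn, described next, by 1.12.

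Cfd and Fasn were higher in the T cell samples. Cfd read 3768, 5317 and 6471 in T cells (lowest, median, highest) and 732, 2309 and 5722 in grafts, a difference of 1.20 ± 0.28 (adjusted p = 0.00098), with overlapping ranges. This difference is an average over days, and the gap narrowed with day. Mean log2 values on days 1, 3 and 7 were 12.29, 12.40 and 12.39 in T cells and 9.80, 11.48 and 12.20 in grafts. The T cell samples also held macrophage signal: 12 of 13 macrophage genes passed the filter in both tissues, 4 of them higher and 6 lower in T cells. Their part in the Cfd difference was not tested. Fasn read 1454, 1603 and 1795.0 in T cells and 845, 919 and 1230.0 in grafts, with no overlap (0.70 ± 0.08, adjusted p = 3.2e-07). Scd read 182, 248 and 413 in T cells and 53.2, 154 and 964 in grafts (0.40 ± 0.41, adjusted p = 0.36). Fabp4 read 1088, 1541 and 4425 in T cells and 1002, 3820 and 4826 in grafts (-0.55 ± 0.25, adjusted p = 0.055), and neither passed the test. Fabp4 did pass without the cyclosporine or the untreated graft of day 7, without the cyclosporine plus peptide T cells of day 7, or without the untreated T cells of day 1. Its mean was lower in T cells than in grafts on days 1 and 3 but higher on day 7 (10.46 against 10.11, log2). Of the white adipocyte list, 16 genes passed the filter in both tissues, and of these 4 were higher (Bscl2, Pde3b, Pparg and Prkar2b) and 12 lower in T cells. The other 11 passed in grafts alone and could only be called lower. Of 17 fatty acid synthesis genes that passed in both, 8 were higher and 6 lower, and of 15 cholesterol genes 11 were higher and 2 lower (Fdft1 and Insig1). Among all genes that passed in both tissues, 49.1% were higher and 32.7% lower.

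**Figure D4:**
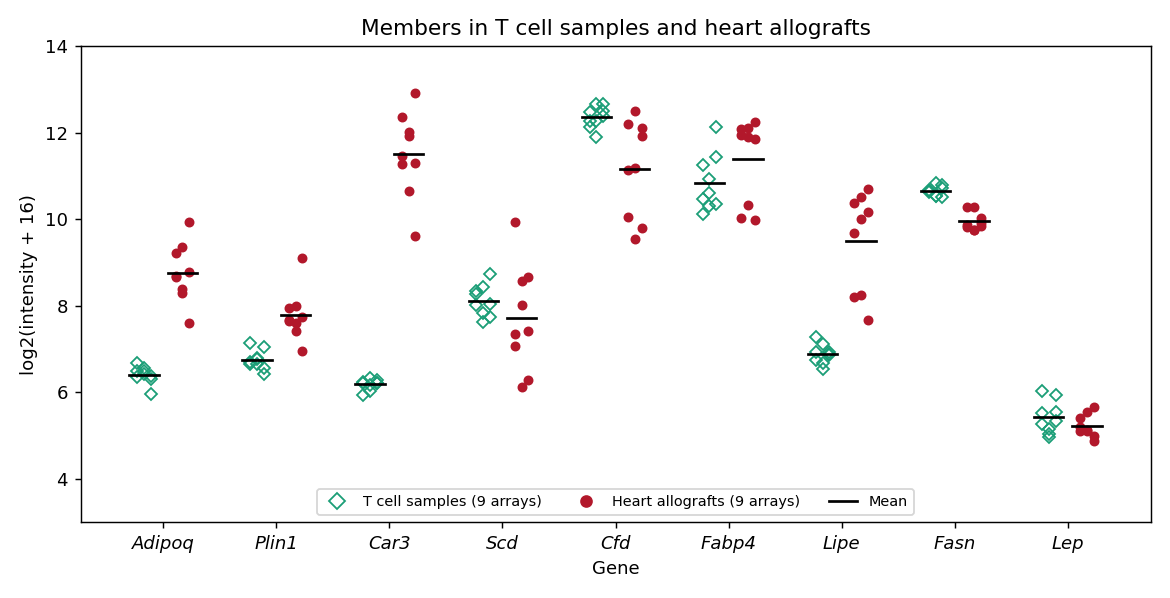
log2(intensity + 16) of the 9 genes in T cell samples (open diamonds, left of each pair) and heart allografts (filled circles, right), 1 point per array, with the mean as a bar. Adipoq, Car3 and Lipe do not overlap between the tissues, while Cfd and Fasn have higher means in T cells and Scd spans the widest range in grafts.

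Within T cells, 4 members were tested (Cfd, Fabp4, Fasn and Scd). None was called between days or treatments, except that Scd was called on day 7 against day 1 when the cyclosporine T cells of day 1 were left out. Over all 19454 probe sets, 0.437% were higher and 0.139% lower on day 7 than on day 1. In the other day comparisons 0% were called, with 1617 (day 3 against day 1) and 1048 (day 7 against day 3) at an unadjusted p below 0.05. In the 3 treatment comparisons 0% were called too, with 2216, 4631 and 855 at an unadjusted p below 0.05 in the same order as for grafts. Scd, so variable among grafts, read 242, 293 and 306 in cyclosporine T cells on days 1, 3 and 7. It read 327, 182 and 213 with cyclosporine plus peptide, and 413, 198 and 248 untreated. The T cell order did not repeat that of the grafts: on day 1 the untreated T cells were highest, where the untreated graft was lowest.

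Of these 4, Fabp4 varied most among T cell samples. It read 2418, 1398 and 1088 with cyclosporine on days 1, 3 and 7, 1249.8, 1541 and 1919 with cyclosporine plus peptide, and 4425, 2750.5 and 1288 untreated. Cyclosporine minus untreated was -0.69 ± 0.37 (adjusted p = 0.50) and day 7 minus day 1 was -0.77 ± 0.37 (adjusted p = 0.25), so neither passed the test. Macrophage genes were also highest in the untreated T cells of day 1, with a summed intensity of 66998 there and 34972 to 53476 in the other 8 samples, with no gene at 0. Their part in the Fabp4 values was not tested.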

How the data were processed

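Intensities are linear values per probe set, deposited by the authors, whose software and scaling are not given in the sources at hand. Array upper quartiles were alike (728 to 758) and 771 values lay below 0, so scaling and background subtraction preceded deposit. Of 31099 probe sets, 57 controls were left out. Values were floored at 0 and used as log2(intensity + 16), which understates changes of weak signals. A probe set was tested where it exceeded the 40th percentile of its array on at least 3 arrays of the fit.

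Tests used limma 3.58.1 in R 4.3.3 with a mean-variance trend and Benjamini-Hochberg adjustment at 0.05, with treatment and day as factors (4 residual degrees of freedom per tissue, 12 with both tissues). No combination is replicated, so p-values measure the unevenness between these samples, which may be technical. Within a tissue, that unevenness is how treatment differences vary between days, so day-specific treatment differences count as scatter. The number of arrays limits precision. Probe sets were named by the platform annotation where it gives 1 symbol. The members and the 13 lists (204 genes, 159 tested in grafts) were chosen with earlier results of these data known. Genes were named by fixed rules: all members, the 10 genes most like their mean, and up to 4 per list by size. Genes named after their values were seen are those with r above 0.8 to Adipoq, and Srebf1. Subtracting day means was added after seeing the data. The fits were tested on simulated data.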

Additional observations from a re-analysis of the deposited data

Results flagged for a closer look

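Within 9 samples of a tissue, 2 values lay far from the rest by the gap to the nearest sample divided by the whole range. Plin1 in the untreated graft of day 3 stood above the other grafts with a gap ratio of 0.516, and Adipoq in the untreated T cells of day 3 lay below the other T cell samples with 0.496, at an intensity (46.1) under the 40th percentile of its array. Chance flags about 1 in 20 groups of replicate samples, and groups from both tissues were examined. The 9 samples of a tissue are of different treatments and days and are not replicates, so that rate need not hold here. Plin1 was also chosen on these same grafts, so its flag is a description and not a test.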

How the results depend on the processing

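Quantile normalization, median centring, pseudocounts of 1 and 64, no filter, no trend and averaging of probe sets kept the direction and the side of the threshold of the 8 member differences between T cells and grafts, although averaging probe sets moved that of Lipe to -1.21, of Plin1 to -0.67 and of Fasn to 1.12. Under the same settings the list counts on day 7 against day 1, and those between T cells and grafts, stayed within 1.5 times their values, with 9 fatty acid synthesis genes lower at most. The settings for the lists other than the white adipocyte and fatty acid synthesis genes were chosen after seeing the data. With no filter, 1 skeletal muscle gene was higher on day 3 than on day 1. The Fabp4 difference between T cells and grafts passed the test when 1 of 4 arrays was left out (-0.61 to -0.71). Leaving out single arrays gave 0 to 1 calls in T cells between days (Scd, without the cyclosporine T cells of day 1) and 3 to 5 white adipocyte genes higher on day 7 than day 1 (5 without the cyclosporine graft of day 1 or the untreated graft of day 3). It gave 2 to 4 white adipocyte genes higher and 2 to 6 lower on day 3 than day 1, 3 to 6 higher on day 7 than day 3, and 1 to 3 skeletal muscle genes lower on day 3 than day 1. The median r between members ranged from 0.11 (without the untreated graft of day 3) to 0.41 (without the cyclosporine graft of day 1) as deposited, from 0.49 to 0.67 with day means subtracted, and from 0.31 to 0.90 with treatment and day removed. Without the day 1 arrays these medians were 0.40, 0.71 and 0.92. Without the cyclosporine graft of day 1 and the untreated graft of day 3 they were 0.41 with day means subtracted and 0.14 with treatment and day removed. With treatment and day removed, the median of Spearman's rho over all 9 grafts was 0.57. The array that moved the median r most was the cyclosporine graft of day 1 as deposited, and the untreated graft of day 3 with day means subtracted or with treatment and day removed, and the cause was not tested. The fits already compare arrays within a day, since day is a factor in them, and the labels carry no replicate numbers for a further block.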
